A study of Mus musculus with 9 samples.

Results

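Muscle that had received either of 2 small interfering RNA (siRNA) constructs against the ubiquitin ligase gene Ubr4 was compared with muscle that had received a non-targeting siRNA. All 9 libraries of the series entered the comparison. They came from tibialis anterior, the muscle at the front of the lower leg, of C57BL/6 mice aged 6 months. The siRNA had been electroporated into the muscle, in the controls as well, and total RNA had been taken with trizol. There were 3 libraries with the non-targeting siRNA, 3 with the siRNA called construct 5 here and 3 with the one called construct 7, and both constructs were given the same weight. The labels mention no sorting of fibres that had taken up siRNA, so each library is whole muscle, and fewer cells of a type and less RNA per cell cannot be told apart. They do not tie samples to animals, so the p-values measure the spread between samples, which may be technical.

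The members described here are genes in which all 6 siRNA libraries lay on one side of all 3 controls. Of 23231 genes in the deposited table, 10794 had a mean of at least 1 FPKM (fragments per kilobase of transcript, relative to the depth of the library, and so a level per length) over the 9 libraries and were tested. Among these, 1024 genes (9.49% of those tested) were members: 868 (8.04%) were higher in every siRNA library and 156 (1.45%) were lower. Because this property chose the genes, the counts are a description and carry no test. A further 266 genes met the rule with a mean under 1 FPKM, 203 of them higher and 63 lower, and were left out. Of the 868 higher members, 51 had a control mean under 1 FPKM and so passed that minimum only through the siRNA libraries, which obliged them to differ. Of the genes described below these include Aldh3a1, Ces2c, Dusp4, Mfsd7a, Plekhh1, Pparg and the gene segment Trdj1. Among the 156 lower members 1, Cdh4, passed only through the controls. No p-value of this comparison is given for the genes just named.

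The product of Ubr4 is an E3 ubiquitin ligase of unusual size that belongs to the N-degron pathway. In that pathway, ligases called N-recognins bind destabilising residues at the start of a protein and, with a ubiquitin-conjugating (E2) enzyme, attach ubiquitin chains that send the protein to the proteasome. Skeletal muscle balances protein synthesis against breakdown by the proteasome and by autophagy, and ubiquitin ligases such as MuRF1 are known for their part in atrophy. The series asks which ubiquitin ligases affect the size of muscle fibres, and these libraries address what follows in the transcriptome when Ubr4 is reduced.

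Ubr4 transcripts were lower in all 6 siRNA libraries than in any control, and Ubr4 was the one gene that passed the test. Ubr4 (ENSMUSG00000066036) stood at 7.82, 10.3 and 9.09 FPKM in the controls, 3.61, 3.80 and 2.73 FPKM with construct 5 and 2.25, 2.58 and 3.07 FPKM with construct 7. The lowest control was more than double the highest siRNA library, and the libraries of the 2 constructs overlapped each other. The mean was 9.06 ± 1.22 FPKM (SD, n = 3) in the controls, 3.38 ± 0.568 FPKM (SD, n = 3) with construct 5 and 2.63 ± 0.412 FPKM (SD, n = 3) with construct 7. The mean of both constructs was therefore 33.2% of the control mean. limma, a linear model fitted across all genes on log2(FPKM + 1), gave a log2 change of -1.33 (SE 0.112, adjusted p = 0.00574) for both constructs together against the controls, with p-values adjusted by Benjamini-Hochberg. limma's adjusted p was 0.0677 when no minimum level was set and 0.0544 without control replicate 3.

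At an adjusted p under 0.05, limma called 1 of 10794 genes (0.00926%), with 0 higher and 1 lower. At an unadjusted p under 0.05 it passed 2066 genes, of which 1740 (16.1%) were higher and 326 (3.02%) lower. Adjusted p-values formed a long shelf just above the threshold: 164 genes (133 higher, 31 lower) lay under 0.1 and 1342 (1134 higher, 208 lower) under 0.2. Most members differed from the controls by a small amount. The median log2 change was 0.23 among the 868 higher members and -0.21 among the 156 lower ones, with 30 and 11 beyond 0.5 in size and 6 and 2 beyond 1. No named member other than Ubr4 passed the test. The same comparison chose the members, so its log2 changes and p-values describe them and support nothing further. Weighting each library by its own spread raised the calls to 103, of which 98 were members. Leaving out 1 library gave 0 calls when it was control replicate 3 and 2 when it was control replicate 2. The count was 3 for construct 5 replicate 2, 2 for construct 5 replicate 3, 7 for construct 7 replicate 1 and 5 for construct 7 replicate 3.

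The balance of higher against lower members moved with the scaling of the libraries. As deposited, the median log2 change of all genes was 0.07 (0.13 with construct 5 and 0.02 with construct 7), and 72.0% of genes lay above 0. The authors' FPKM values sum to 478776 to 532345 per library, and factors from the median ratio of genes were 0.953 to 0.976 in the controls, 1.02 to 1.11 with construct 5 and 0.975 to 0.987 with construct 7. Dividing by these factors brought the median of all genes to 0.00. It left 866 genes (8.02%) with all 6 libraries on one side, now 437 higher (4.05%) and 429 lower (3.97%). Quantile normalization gave 363 higher and 375 lower. All 156 lower members and 436 of the 868 higher members were on one side under both scalings (1.45% and 4.04% of genes tested, 5.48% together), and the values as deposited are to be read against that shift of 0.07 in all genes. Fewer libraries are easier to separate: the 1024 members became 1611 when control replicate 2 was left out, 1869 for control replicate 3 and 1552 for construct 7 replicate 1.

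**Figure D1:**
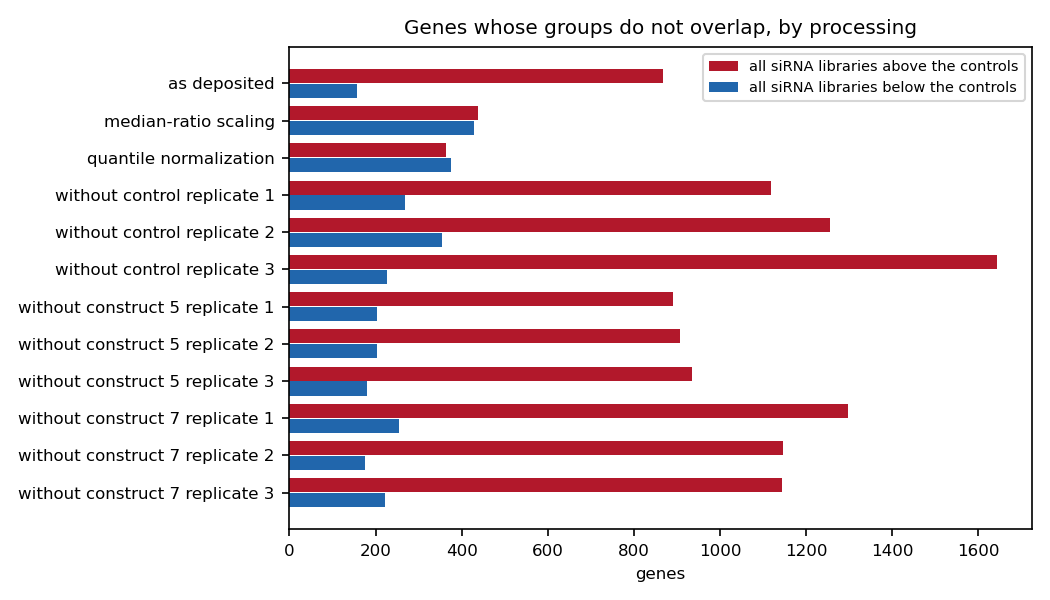
Number of genes (horizontal axis) with every siRNA library above (red) or below (blue) every control, by processing: as deposited, under 2 other scalings, and with 1 library left out in turn. As deposited 868 genes were higher and 156 lower, and with median-ratio scaling 437 and 429; leaving out control replicate 3 raised the higher count to 1643.

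The lower members were led, after Ubr4, by Smox. Smox encodes spermine oxidase, which turns spermine back into spermidine. Its levels were 101, 89.4 and 84.0 FPKM in the controls, 45.6, 33.5 and 54.5 FPKM with construct 5 and 32.3, 29.98 and 39.1 FPKM with construct 7. Construct 7 was lower on average but overlapped construct 5, and the highest siRNA library was well below the lowest control. The mean of both constructs was 42.8% of the control mean. limma gave a log2 change of -1.23 (SE 0.144, adjusted p = 0.0536), just outside the threshold. It passed in 8 of 21 alternatives, over a range of 0.0198 to 0.249.

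Other lower members belong to chromatin. Hist1h4i, 1 of many near-identical histone H4 genes whose reads may be divided among copies, stood at 24.97, 19.0 and 22.4 FPKM in the controls, 17.2, 12.5 and 13.7 FPKM with construct 5 and 11.5, 8.82 and 12.4 FPKM with construct 7. The groups did not overlap, and limma gave -0.77 (SE 0.131, adjusted p = 0.0821). Anp32e, a chaperone that takes a histone variant off chromatin, stood at 19.0, 20.7 and 19.7 FPKM in the controls, 14.04, 16.5 and 14.97 FPKM with construct 5 and 10.9, 12.3 and 13.2 FPKM with construct 7. Construct 7 held the 3 lowest libraries, and limma gave -0.52 (SE 0.0753, adjusted p = 0.0804).

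Among genes of the cell surface and of signalling, Arhgap10, which encodes a GTPase-activating protein, stood at 16.3, 16.4 and 16.4 FPKM in the controls, 12.7, 13.5 and 14.6 FPKM with construct 5 and 7.03, 6.66 and 9.57 FPKM with construct 7. Every construct 7 library lay below every construct 5 library, and limma gave -0.63 (SE 0.0990, adjusted p = 0.0804) for the mean of both. Cdh4, a cadherin of cell adhesion, stood at 1.67, 1.21 and 2.77 FPKM in the controls, 0.582, 0.395 and 0.383 FPKM with construct 5 and 1.19, 0.951 and 0.724 FPKM with construct 7. Its controls spread over more than a doubling, and here construct 5 held the 3 lowest libraries (log2 change -0.74). Its mean over the siRNA libraries was under 1 FPKM. The zinc transporter gene Slc30a2 stood at 4.28, 3.42 and 5.42 FPKM in the controls, 2.95, 1.91 and 3.13 FPKM with construct 5 and 3.14, 0.956 and 1.86 FPKM with construct 7. The lowest control (3.42 FPKM) was close to the highest siRNA library (3.14 FPKM), and limma gave -0.72 (SE 0.222, adjusted p = 0.145).

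The netrin receptor gene Unc5a lay at 3.28 to 3.84 FPKM in the controls and 1.95 to 2.94 FPKM in the 6 siRNA libraries, with a log2 change of -0.44 and a limma adjusted p of 0.0821. Inpp5a, an inositol phosphate phosphatase that ends calcium signals, lay at 20.005 to 21.2 FPKM in the controls and 13.0 to 17.1 FPKM in the 6 siRNA libraries (-0.36, limma adjusted p = 0.0821). Popdc2, a membrane protein of striated muscle that binds cyclic AMP, lay at 27.2 to 28.4 FPKM in the controls and 17.2 to 24.3 FPKM in the 6 siRNA libraries (-0.41, limma adjusted p = 0.0804). In these genes the siRNA libraries formed a band of their own just under a tight group of controls. Stt3b, a catalytic subunit of the enzyme that attaches sugar chains to new proteins, lay at 18.9 to 21.02 FPKM in the controls and 13.4 to 17.8 FPKM in the 6 siRNA libraries (-0.34, limma adjusted p = 0.0804). Metrn, which encodes the secreted protein meteorin, lay at 18.7 to 20.02 FPKM in the controls and 11.3 to 16.4 FPKM in the 6 siRNA libraries (-0.44, limma adjusted p = 0.101). Lrp2bp (-0.50) and Zfp651 (-0.47), also among the 12 named lower members of largest size, had limma adjusted p-values of 0.128 and 0.110.

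**Figure D2:**
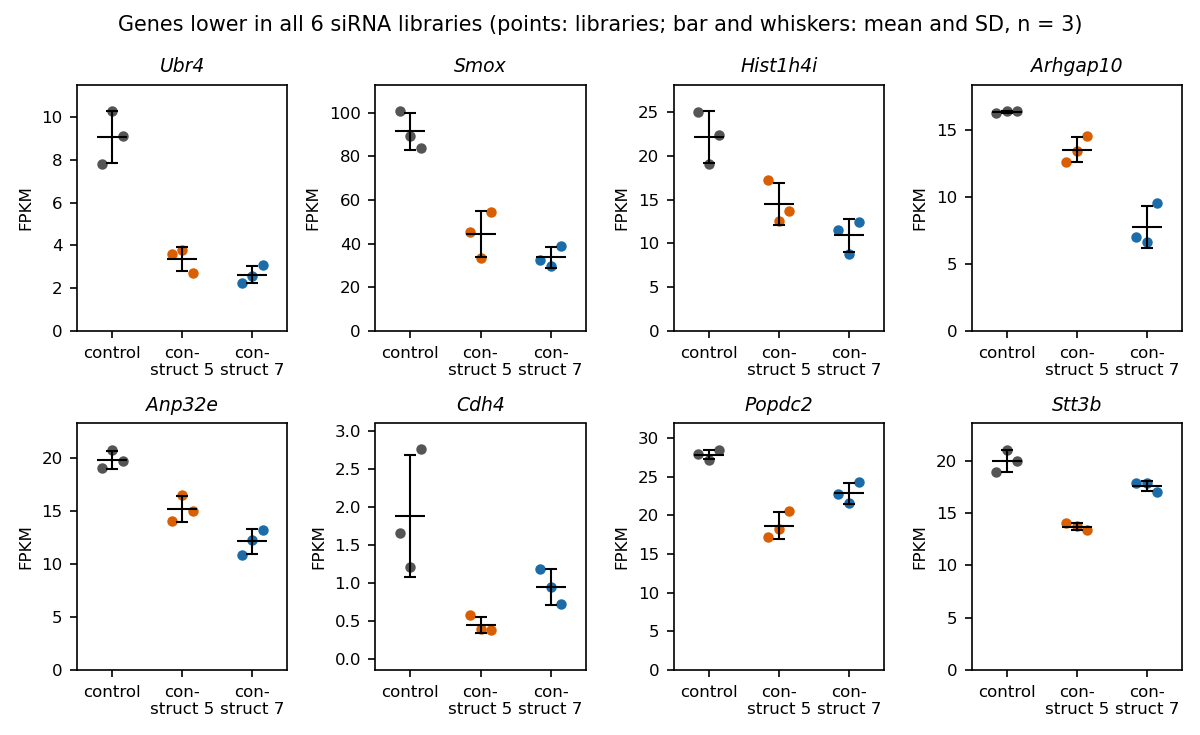
FPKM (vertical axes) of 8 genes lower in all 6 siRNA libraries, for the controls, construct 5 and construct 7; points are libraries, and bars with whiskers are the mean and SD (n = 3). In Ubr4 and Smox all siRNA points lie far under the controls, while in Stt3b and Popdc2 construct 7 lies between construct 5 and the controls.

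Among higher members other than gene segments, the largest positive values were in Sln, Aldh3a1 and Krt18. The T cell receptor segment Trdj1 (2.22), listed at 0 in control replicates 1 and 3 and at 1.82 FPKM in control replicate 2, lay between Aldh3a1 and Krt18 and was skipped as a segment. Its control mean was under 1 FPKM, so it reached the minimum only through the siRNA libraries. Sln encodes sarcolipin, a small membrane peptide that inhibits the calcium pump of the sarcoplasmic reticulum. It stood at 4.24, 14.3 and 11.8 FPKM in the controls, 117, 42.7 and 39.6 FPKM with construct 5 and 45.1, 100.2 and 24.3 FPKM with construct 7. The siRNA libraries ranged from 24.3 to 117 FPKM, wider than the gap to the controls, and limma gave 2.42 (SE 0.510, adjusted p = 0.0851). Aldh3a1, an aldehyde dehydrogenase that detoxifies aldehydes, stood at 0.0351, 0.430 and 0.842 FPKM in the controls, 4.54, 6.44 and 6.53 FPKM with construct 5 and 4.19, 4.72 and 16.2 FPKM with construct 7. Control replicate 1 was under the level of 3 reads on a transcript of 1 kilobase (0.0658 to 0.102 FPKM, counting error only), and 1 construct 7 library was far above the other siRNA libraries (log2 change 2.40). Its control mean, 0.436 FPKM, was under the minimum.

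Krt18, the keratin that pairs with keratin 8 in intermediate filaments, stood at 0.926, 2.08 and 1.70 FPKM in the controls, 5.94, 5.60 and 7.17 FPKM with construct 5 and 3.61, 14.1 and 14.3 FPKM with construct 7. Construct 7 replicate 1 was the lowest of the siRNA libraries, and limma gave 1.77 (SE 0.351, adjusted p = 0.0821). Krt8 itself, named after its values were seen, was not a member, since construct 7 replicate 1 (1.22 FPKM) lay within the controls (0.491, 1.27 and 0.675 FPKM). The other siRNA libraries held 4.74 to 6.98 FPKM. Rrad, a small GTPase of muscle that restrains calcium channels, stood at 2.69, 5.07 and 3.60 FPKM in the controls, 18.7, 15.5 and 15.2 FPKM with construct 5 and 6.64, 11.4 and 22.4 FPKM with construct 7, and limma gave 1.68 (SE 0.298, adjusted p = 0.0821). Cdkn1a, the cell cycle inhibitor p21, stood at 5.43, 6.92 and 6.36 FPKM in the controls, 20.3, 19.7 and 15.3 FPKM with construct 5 and 8.76, 25.8 and 17.1 FPKM with construct 7, and limma gave 1.32 (SE 0.258, adjusted p = 0.0821). In Krt18, Rrad and Cdkn1a the lowest siRNA library was each time construct 7 replicate 1, and without it limma called 7 genes: Cdkn1a, Krt18, Krt8, Obfc2a, Rrad, Smox and Ubr4. Leaving out the lowest siRNA library widens the difference in Krt18, Rrad and Cdkn1a by construction, so their calls support nothing further. Krt8 had a control mean under 1 FPKM. It reached the minimum only through the siRNA libraries, so its call is not read as a result.

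Further higher members of large size encode enzymes, signalling proteins and a DNA-binding protein. Ces2c, a carboxylesterase, lay at 0.139 to 0.660 FPKM in the controls and 1.06 to 2.82 FPKM in the 6 siRNA libraries (log2 change 0.96). Obfc2a (now named Nabp1), a protein that binds single-stranded DNA at breaks, stood at 7.13, 6.87 and 6.02 FPKM in the controls, 15.8, 10.4 and 11.1 FPKM with construct 5 and 12.5, 15.9 and 16.9 FPKM with construct 7. The lowest siRNA library was well above the highest control, and limma gave 0.92 (SE 0.134, adjusted p = 0.0804). Dusp4, a phosphatase that switches off MAP kinases, lay at 0.598 to 0.779 FPKM in the controls and 1.08 to 2.16 FPKM in the 6 siRNA libraries (0.65). Mib1, an E3 ligase that acts on Notch ligands, lay at 3.15 to 3.83 FPKM in the controls and 4.38 to 9.48 FPKM in the 6 siRNA libraries (0.65, limma adjusted p = 0.0882). Mfsd7a had a log2 change of 0.83 and Plekhh1 one of 0.80. Plekhh1 lay at 0.326 to 0.372 FPKM in the controls and 0.603 to 3.26 FPKM in the 6 siRNA libraries, the latter widely spread. Ces2c, Dusp4, Mfsd7a and Plekhh1 had control means under 1 FPKM and so reached the minimum only through the siRNA libraries.

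Another set had modest values but little spread, with p-values among the smallest of the higher members. Copb1, a subunit of the coat of vesicles that return from the Golgi, lay at 8.31 to 9.37 FPKM in the controls and 11.0 to 14.2 FPKM in the 6 siRNA libraries (0.43). Matr3, an RNA-binding protein of the nuclear matrix, lay at 10.9 to 11.9 FPKM in the controls and 14.4 to 15.8 FPKM in the 6 siRNA libraries (0.37). Gtf2e2, a subunit of general transcription factor TFIIE, lay at 4.05 to 4.33 FPKM in the controls and 5.26 to 6.61 FPKM in the 6 siRNA libraries (0.39). The 6 siRNA libraries of each formed a narrow group. Akirin1, a nuclear protein studied in muscle regeneration, lay at 7.74 to 8.74 FPKM in the controls and 10.6 to 13.2 FPKM in the 6 siRNA libraries (0.48). Per2, a repressor of the circadian clock, lay at 0.895 to 1.09 FPKM in the controls and 1.49 to 2.04 FPKM in the 6 siRNA libraries (0.45). All 5 had the same limma adjusted p of 0.0804, which Benjamini-Hochberg gave to a run of genes that also held Spon2, Zfyve16, Taf1b, Dhrs11, Klhl9 and Sept2.

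**Figure D3:**
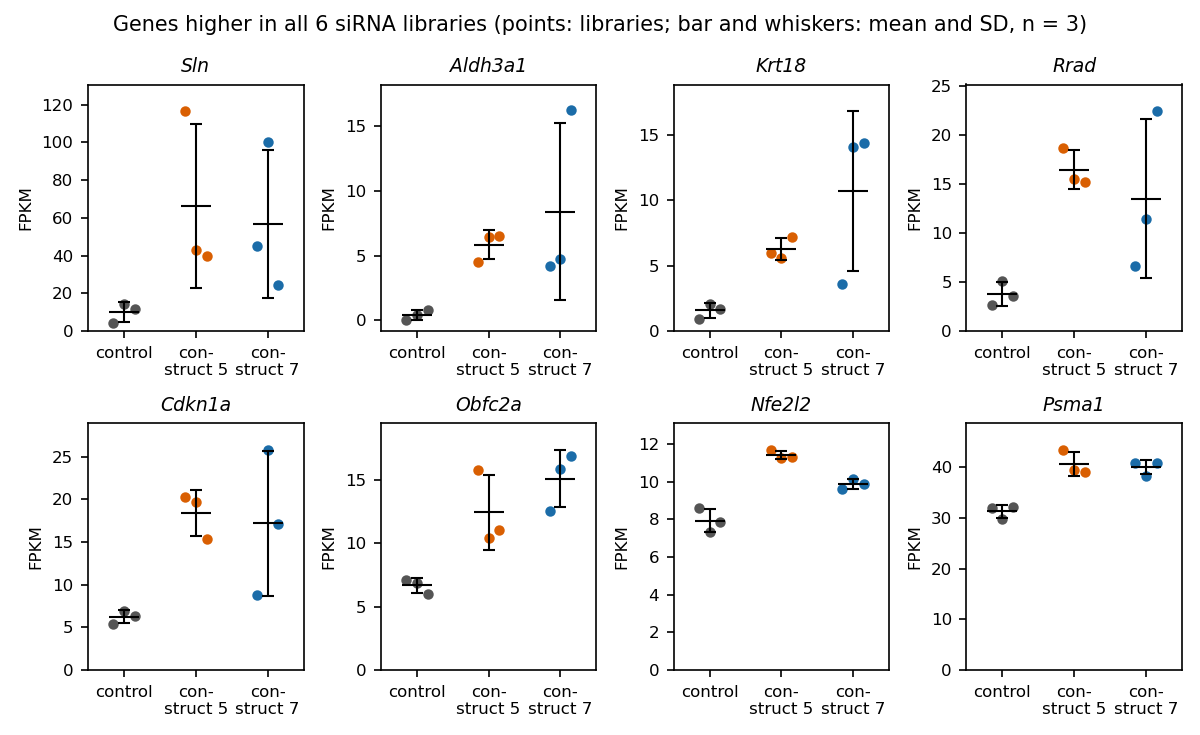
FPKM (vertical axes) of 8 genes higher in all 6 siRNA libraries, for the controls, construct 5 and construct 7; points are libraries, and bars with whiskers are the mean and SD (n = 3). Sln, Aldh3a1, Krt18, Rrad and Cdkn1a differ most but scatter widely with siRNA, while Nfe2l2 and Psma1 differ less and scatter little.

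Nrf2, encoded by Nfe2l2, is the transcription factor that switches on antioxidant and detoxifying enzymes through a DNA element whose core is TGACNNNGC, N being any base. Of 20 tested genes in a list of Nrf2 and xenobiotic targets, 4 were higher in all 6 libraries, 0 lower and 0 were called, and the same 4 to 0 held with median-ratio scaling, where 8.04% of all genes were higher as deposited and 4.05% after scaling. The median log2 change of the 20 was 0.20 (0.13 scaled), beside 0.07 (0.00 scaled) in all genes. A change above 0 was found in 14 of the 20, a share near the 72.0% of all genes. After scaling 13 were above 0, where 5525 of all 10794 genes were. Except for the 4 members, the groups overlapped in every gene of the list. Nfe2l2 itself stood at 8.57, 7.34 and 7.83 FPKM in the controls, 11.7, 11.2 and 11.3 FPKM with construct 5 and 9.60, 10.1 and 9.89 FPKM with construct 7. Construct 5 held the 3 highest libraries, and limma gave 0.38 (SE 0.0587, adjusted p = 0.0804). Cat, catalase, which breaks down hydrogen peroxide, stood at 32.3, 34.9 and 31.2 FPKM in the controls, 45.7, 58.3 and 44.7 FPKM with construct 5 and 38.4, 51.5 and 55.2 FPKM with construct 7, and limma gave 0.55 (SE 0.124, adjusted p = 0.0987). Prdx1, a peroxiredoxin that reduces peroxides, stood at 55.2, 54.5 and 55.5 FPKM in the controls, 71.4, 66.2 and 63.7 FPKM with construct 5 and 66.7, 61.3 and 69.5 FPKM with construct 7, and limma gave 0.27 (SE 0.0621, adjusted p = 0.102). Aldh3a1, which reached the minimum only through the siRNA libraries, was the other member. Gsr, glutathione reductase, was not in the list and was named after its values were seen; it stood at 5.41, 5.64 and 5.46 FPKM in the controls, 10.9, 8.20 and 8.25 FPKM with construct 5 and 7.56, 7.65 and 8.51 FPKM with construct 7, and limma gave 0.54 (SE 0.0875, adjusted p = 0.0804).

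The upstream sequence of 3 of these 4 members and of Smox is shown because the Nrf2 core can be looked for in it directly. Each is the 250 bases before the start given by RefSeq on GRCm38.p6, 5′ to 3′ along the gene, in lower case, with capitals marking TGACNNNGC on either strand. Their positions on that build are chr2:75704664-75704913, minus strand, for Nfe2l2, chr4:116685349-116685598, plus strand, for Prdx1, chr2:103485154-103485403, minus strand, for Cat, and chr2:131491612-131491861, plus strand, for Smox.
Nfe2l2: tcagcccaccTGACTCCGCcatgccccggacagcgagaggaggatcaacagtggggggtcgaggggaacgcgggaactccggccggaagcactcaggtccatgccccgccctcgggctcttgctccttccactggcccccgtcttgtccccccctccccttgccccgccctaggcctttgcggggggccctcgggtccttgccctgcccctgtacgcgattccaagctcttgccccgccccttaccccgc
Prdx1: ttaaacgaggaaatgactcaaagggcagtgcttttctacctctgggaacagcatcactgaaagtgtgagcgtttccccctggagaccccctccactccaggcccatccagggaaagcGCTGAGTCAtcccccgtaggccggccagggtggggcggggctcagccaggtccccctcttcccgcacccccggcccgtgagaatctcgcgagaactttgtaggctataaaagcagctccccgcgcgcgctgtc
Cat: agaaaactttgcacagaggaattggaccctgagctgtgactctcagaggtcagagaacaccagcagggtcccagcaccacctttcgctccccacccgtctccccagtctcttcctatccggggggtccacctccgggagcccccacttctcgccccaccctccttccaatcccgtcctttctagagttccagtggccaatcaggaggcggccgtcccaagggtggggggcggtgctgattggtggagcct
Smox: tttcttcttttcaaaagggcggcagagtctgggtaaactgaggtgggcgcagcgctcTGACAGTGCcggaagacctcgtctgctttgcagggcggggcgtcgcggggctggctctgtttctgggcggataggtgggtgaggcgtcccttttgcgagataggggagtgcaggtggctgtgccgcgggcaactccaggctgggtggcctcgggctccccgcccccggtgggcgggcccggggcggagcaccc
A match to the core began 240 bases before the start in Nfe2l2, 133 bases before it in Prdx1 and 193 bases before it in Smox, and these letters were not in the window of Cat. The core occurred in 10.2% of all 32851 such windows of RefSeq, on either strand. It was in any window of 14.2% of the 7879 tested genes for which a window was found. A gene can have several windows, so a share of genes and a share of windows cannot be compared. These 4 windows were picked for display, so their matches are not a share of the members. A window was found for 75.7% of the higher and 78.2% of the lower members, too few for a comparison of motif shares, which is void. A match is a description of the letters, not a site.

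Several lists of protein breakdown had members above the controls in all 6 siRNA libraries and no called gene. The proteasome, the barrel-shaped protease with its regulatory caps, had 15 of 32 subunits higher in all 6 libraries and 0 lower, where 8.04% of all genes were higher. All 32 had a log2 change above 0, as had 72.0% of all genes, and their median was 0.16. With median-ratio scaling 4 of 32 were higher (4.05% of all genes), 29 had a change above 0 and the median was 0.08. Psma1, a subunit of the outer rings, stood at 31.9, 29.8 and 32.1 FPKM in the controls, 43.4, 39.4 and 39.1 FPKM with construct 5 and 40.8, 38.3 and 40.9 FPKM with construct 7. The 6 siRNA libraries spanned less than 6 FPKM and none reached down to the controls (log2 change 0.36, SE 0.0597, limma adjusted p = 0.0804). Psmc6, an ATPase of the cap that unfolds substrates, stood at 38.1, 40.9 and 41.8 FPKM in the controls, 56.4, 48.8 and 52.8 FPKM with construct 5 and 51.1, 49.9 and 47.4 FPKM with construct 7 (log2 change 0.33, SE 0.0643, limma adjusted p = 0.0821). The ring subunits Psma2 (0.27) and Psma5 (0.35) had limma adjusted p-values of 0.0821 and 0.105. The 4 subunits that stayed higher after scaling were Psma1, Psma2, Psma5 and Psmc6.

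Among ubiquitin-conjugating enzymes, 4 of 27 were higher in all 6 libraries and 0 lower (8.04% and 1.45% of all genes), against 2 and 2 after scaling (4.05% and 3.97%). Ube2z lay at 7.93 to 8.05 FPKM in the controls and 9.05 to 10.9 FPKM in the 6 siRNA libraries (0.26, limma adjusted p = 0.0882), and Ube2d2, Ube2o and Ube2v2 had log2 changes of 0.25, 0.24 and 0.19 with limma adjusted p-values of 0.107, 0.110 and 0.199. Ube2e1, named after its values were seen, shows how a gene can have a small p without being a member. It stood at 13.5, 13.4 and 13.1 FPKM in the controls, 8.03, 8.08 and 7.83 FPKM with construct 5 and 14.003, 14.9 and 14.4 FPKM with construct 7. Construct 7 lay above the controls and construct 5 below them, yet limma gave -0.29 (SE 0.0495, adjusted p = 0.0821) for the mean of both.

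In the list of UBR ligases and N-degron partners, 2 of 14 were higher in all 6 libraries and 1, Ubr4, was lower, while after scaling 0 were higher and 2 lower. In all genes the shares were 8.04% higher and 1.45% lower, and 4.05% and 3.97% after scaling. Ate1, the arginyltransferase that puts a destabilising arginine on proteins, lay at 6.29 to 7.92 FPKM in the controls and 8.10 to 10.1 FPKM in the 6 siRNA libraries (0.29, limma adjusted p = 0.136). Ube2a, an E2 partner of UBR ligases, lay at 16.6 to 16.8 FPKM in the controls and 16.9 to 19.1 FPKM in the 6 siRNA libraries (0.09, limma adjusted p = 0.362). For both, the groups overlapped after scaling.

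The heat shock list had 6 of 23 genes higher in all 6 libraries and 0 lower, against 2 and 0 after scaling, with a median of 0.21 (0.12 scaled). Of all genes 8.04% were higher, and 4.05% after scaling, so the scaled count is near the background. Hsp90aa1, the stress-inducible form of the chaperone Hsp90, stood at 10.8, 11.2 and 10.1 FPKM in the controls, 30.6, 16.7 and 15.7 FPKM with construct 5 and 15.2, 16.8 and 19.4 FPKM with construct 7. Construct 5 replicate 1 was far above every other library, and limma gave 0.74 (SE 0.182, adjusted p = 0.109). The cochaperone Dnaja1 lay at 3.19 to 3.90 FPKM in the controls and 4.19 to 6.62 FPKM in the 6 siRNA libraries (0.36, limma adjusted p = 0.135). Dnajb4 (0.26) and Hspa4 (0.22) had limma adjusted p-values of 0.138 and 0.154. In the endoplasmic reticulum, 2 of 23 stress genes were higher under both scalings (4.04% of all genes) and 0 lower. They were the lectin chaperone Canx (16.3 to 18.4 FPKM in the controls and 20.1 to 26.3 FPKM in the 6 siRNA libraries) and Hsp90b1 (23.5 to 24.2 FPKM in the controls and 26.2 to 39.9 FPKM in the 6 siRNA libraries), with log2 changes of 0.39 and 0.36 and limma adjusted p-values of 0.0882 and 0.102.

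Autophagy and lysosome genes were higher in 5 of 28 and lower in 0, against 2 and 0 after scaling, where 8.04% of all genes were higher and 4.05% after scaling. The scaled count is again near the background. Atg12, the ubiquitin-like protein joined to Atg5, lay at 9.24 to 10.5 FPKM in the controls and 11.5 to 16.0 FPKM in the 6 siRNA libraries (0.32, limma adjusted p = 0.114). Nbr1, a receptor that carries ubiquitinated cargo to autophagosomes, lay at 12.7 to 14.9 FPKM in the controls and 16.5 to 19.9 FPKM in the 6 siRNA libraries (0.31, limma adjusted p = 0.107). Atg5 (0.24) and the lysosomal membrane protein Lamp2 (0.23) had limma adjusted p-values of 0.133 and 0.113.

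The atrophy list had 3 of 22 genes higher in all 6 libraries under both scalings (4.04% of all genes) and 0 lower, with a median of 0.17 (0.10 scaled). Trim63 encodes MuRF1, the muscle E3 ligase that targets sarcomere proteins, and stood at 59.3, 54.6 and 60.3 FPKM in the controls, 88.2, 72.3 and 83.7 FPKM with construct 5 and 75.03, 69.6 and 67.1 FPKM with construct 7. Construct 5 held the highest value and construct 7 the lowest of the siRNA values, and limma gave 0.38 (SE 0.0765, adjusted p = 0.0821). Fbxo30, an F-box protein known as MUSA1, stood at 2.49, 2.52 and 2.91 FPKM in the controls, 3.99, 3.86 and 3.82 FPKM with construct 5 and 3.21, 3.84 and 4.57 FPKM with construct 7, and limma gave 0.42 (SE 0.0875, adjusted p = 0.0851). Cdkn1a was the third. Among myostatin and BMP genes, 1 of 18 was higher (8.04% of all genes), the receptor kinase gene Tgfbr1 (2.87 to 3.72 FPKM in the controls and 3.90 to 5.37 FPKM in the 6 siRNA libraries, 0.39, limma adjusted p = 0.111), and its groups overlapped after scaling.

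Fast-fibre sarcomere genes had members on the other side. In all 6 libraries 4 of 16 were lower and 0 higher, with the same counts after median-ratio scaling. Of all genes 1.45% were lower, and 3.97% after scaling. The median log2 change of the list was -0.06 (-0.14 scaled). A log2 change above 0 was found in 4 of the 16, up to 0.46. Tnni2, the fast troponin that holds back contraction, lay at 3845 to 4185 FPKM in the controls and 3146 to 3664 FPKM in the 6 siRNA libraries (-0.25, limma adjusted p = 0.153). Tnnt3, the fast troponin that binds tropomyosin, lay at 10328 to 11364 FPKM in the controls and 8528 to 9954 FPKM in the 6 siRNA libraries (-0.22, limma adjusted p = 0.203). Tnnc2, the fast calcium-binding troponin, lay at 8787 to 9838 FPKM in the controls and 7398 to 8714 FPKM in the 6 siRNA libraries (-0.20, limma adjusted p = 0.251). These 3 subunits of 1 complex were thus at 84.0% to 86.8% of their control means as deposited. The size depended on the processing. Over 21 alternatives the log2 change ran from -0.31 to -0.06 in Tnnt3 and from -0.30 to -0.06 in Tnnc2. It ran from -0.36 to -0.19 in Tnni2. The highest limma adjusted p-values were 0.752, 0.720 and 0.488 in that order. Tpm1, a tropomyosin, lay at 2418 to 2618 FPKM in the controls and 1771 to 2321 FPKM in the 6 siRNA libraries (-0.24, limma adjusted p = 0.282), and Acta1, skeletal muscle actin, at 19902 to 20568 FPKM in the controls and 13882 to 19330.3 FPKM in the 6 siRNA libraries (-0.24, limma adjusted p = 0.249). Xirp2, an actin-binding protein of the fibre's junctions, lay at 150.3 to 183 FPKM in the controls and 116 to 146 FPKM in the 6 siRNA libraries (-0.34, limma adjusted p = 0.128). Of 13 slow-fibre genes 1, Sln, was higher and 0 were lower, near the 8.04% of all genes that were higher. Of 24 genes of calcium handling the same gene, Sln, was the 1 higher. In that list 0 were lower and 1 after scaling, beside 1.45% and 3.97% of all genes.

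Of 11 satellite cell and myogenic genes, 2 were higher under both scalings (4.04% of all genes) and 0 lower. Myf6, the myogenic factor of mature fibres also called Mrf4, stood at 48.3, 49.8 and 48.3 FPKM in the controls, 117, 62.6 and 73.1 FPKM with construct 5 and 60.1, 82.1 and 74.5 FPKM with construct 7. The controls agreed within 2 FPKM while the siRNA libraries spread from 60.1 to 117 FPKM (log2 change 0.63, SE 0.175, limma adjusted p = 0.128). Mef2a, a transcription factor of muscle genes, lay at 16.0 to 19.0 FPKM in the controls and 19.0 to 22.2 FPKM in the 6 siRNA libraries (0.28, limma adjusted p = 0.105), with the highest control and the lowest siRNA library almost level. Of 20 circadian clock genes 2 were higher as deposited and after scaling (8.04% and 4.05% of all genes), a count near the background: Per2 and Tef, an output factor of the clock that lay at 28.3 to 32.4 FPKM in the controls and 32.4 to 46.6 FPKM in the 6 siRNA libraries (0.36, limma adjusted p = 0.123). In Tef too the nearest libraries of the groups almost met.

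The listed genes of energy metabolism were nearly absent from the members. None of 41 genes of oxidative phosphorylation and none of 19 of the tricarboxylic acid cycle lay on one side as deposited. Of all genes 9.49% did. Their median log2 changes were -0.08 and -0.09, with 5 and 4 genes above 0 (72.0% of all genes). The medians were -0.18 and -0.23 with construct 5, but 0.008 and 0.04 with construct 7. After scaling 0 of either list was above 0, where 5525 of all 10794 genes were. Then 1 gene of oxidative phosphorylation was lower in all 6 libraries, beside 3.97% of all genes. The lists are not complete: Ndufa7, a gene of respiratory complex I outside them, was a lower member. Of 29 glycolysis genes 1 was higher and 1 lower, beside 8.04% and 1.45% of all genes. Pgam2, the muscle phosphoglycerate mutase, stood at 2531, 2514 and 2412 FPKM in the controls, 1609.7, 2048 and 1933 FPKM with construct 5 and 1998, 2203 and 2161 FPKM with construct 7, and limma gave -0.33 (SE 0.0874, adjusted p = 0.123). The groups stood apart, with construct 5 lower on average. Gpi1, glucose phosphate isomerase, lay at 197 to 210.3 FPKM in the controls and 217 to 262 FPKM in the 6 siRNA libraries (0.18, limma adjusted p = 0.243) and overlapped after scaling. No gene of fatty acid oxidation (30 tested), branched-chain amino acid breakdown (24) or the ribosomal proteins (46) was on one side as deposited. That share was 9.49% in all genes.

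Several members handle polyamines, DNA and histones. Of 14 polyamine genes, 1 was higher and 1 lower, beside 8.04% and 1.45% of all genes. Atp13a3, a transporter of polyamines, stood at 2.46, 3.51 and 4.05 FPKM in the controls, 5.94, 5.73 and 5.01 FPKM with construct 5 and 4.42, 5.66 and 5.85 FPKM with construct 7, above the controls in all 6 libraries under both scalings (log2 change 0.58, SE 0.124, limma adjusted p = 0.0882), and Smox was the lower one. Of 14 histone chaperones, 2 were higher and 1 (Anp32e) lower under both scalings, beside 4.04% and 1.45% of all genes. Rbbp4, a histone-binding subunit of several chromatin complexes, stood at 5.32, 6.04 and 5.50 FPKM in the controls, 7.82, 7.48 and 7.20 FPKM with construct 5 and 6.66, 7.76 and 7.21 FPKM with construct 7 (log2 change 0.34, SE 0.0647, limma adjusted p = 0.0821). Its close relative Rbbp7 stood at 31.1, 32.8 and 34.1 FPKM in the controls, 42.4, 39.3 and 40.8 FPKM with construct 5 and 36.9, 38.9 and 35.0 FPKM with construct 7 (log2 change 0.24, SE 0.0594, limma adjusted p = 0.109). Their partner Hat1, a histone acetyltransferase, overlapped the controls, at 4.39 to 5.33 FPKM in the controls and 4.85 to 5.79 FPKM in the 6 siRNA libraries (log2 change 0.12, SE 0.0748, limma adjusted p = 0.403).

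Of 16 p53 targets, 3 were higher and 1 lower (8.04% and 1.45% of all genes), against 2 and 1 after scaling (4.05% and 3.97%). Besides Cdkn1a and Rrad, Bax, which opens mitochondria in cell death, lay at 8.46 to 9.33 FPKM in the controls and 9.68 to 12.6 FPKM in the 6 siRNA libraries (0.28, limma adjusted p = 0.156). The nuclease gene Aen was lower, at 8.12 to 8.69 FPKM in the controls and 6.51 to 8.05 FPKM in the 6 siRNA libraries (-0.19, limma adjusted p = 0.181). DNA repair genes were higher in 2 of 19 and lower in 1, against 1 and 2 after scaling. With 8.04% and 1.45% of all genes as deposited, and 4.05% and 3.97% after scaling, counts this small are near the background and nothing is read from them. Beside Obfc2a these were Ddb1, which recognises damaged DNA as part of a ligase (41.8 to 48.6 FPKM in the controls and 52.5 to 65.2 FPKM in the 6 siRNA libraries, 0.34, limma adjusted p = 0.114), and Rpa2, a subunit of the main single-strand binding complex (7.25 to 7.41 FPKM in the controls and 6.48 to 7.00 FPKM in the 6 siRNA libraries, -0.10, limma adjusted p = 0.311).

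In further sets the counts are to be read against the 8.04% of all genes that were higher (4.05% after scaling). Of 20 microtubule motor genes 3 were higher, Dync1li2 (0.23, limma adjusted p = 0.110), Dynlt3 (0.21, 0.123) and Dctn4 (0.22, 0.197), and 1 of them, Dync1li2, after scaling. Of 26 genes of ribosome biogenesis 2 were higher, Ddx21 (0.22, limma adjusted p = 0.132) and Cirh1a (0.19, 0.236). Of 12 genes of small RNA silencing 1 was higher, the Argonaute gene Eif2c4 (0.28, limma adjusted p = 0.144), and 0 of either list were higher after scaling. All 25 tested interferon-response genes had a log2 change above 0, as had 72.0% of all genes, with a median of 0.22 (24 and 0.16 scaled). The median was 0.37 with construct 5 and 0.05 with construct 7, and none lay on one side in all 6 libraries, and 0 were called. Genes of denervation (18), growth signalling (23), immediate early response (18) and proliferation (9) also had 0 members on one side as deposited.

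**Figure D4:**
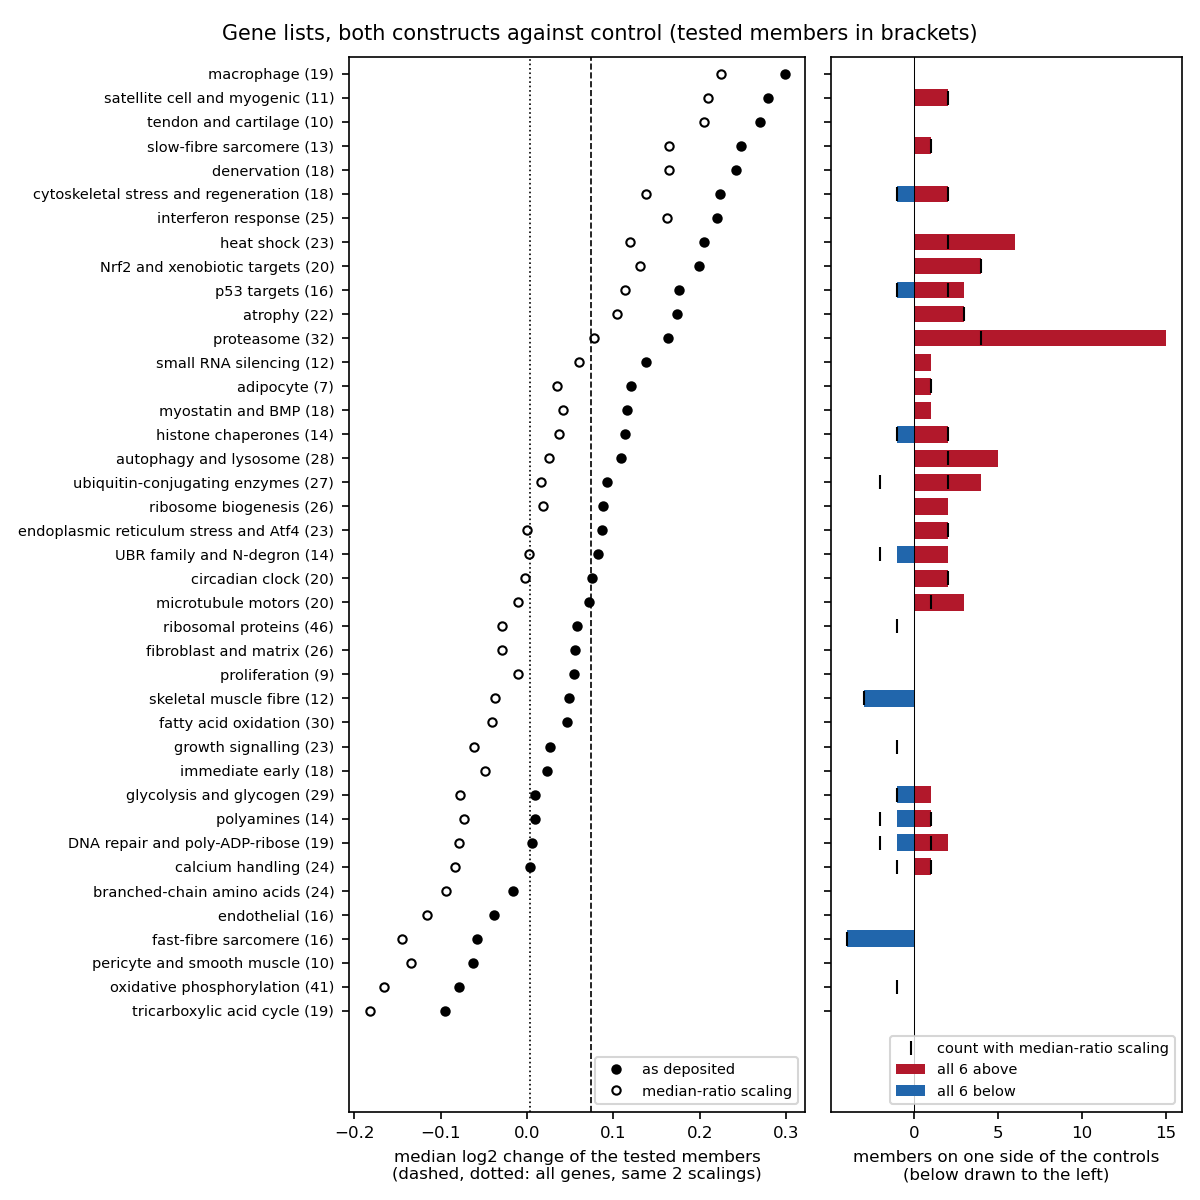
Left, median log2 change of each gene list with at least 5 tested genes as deposited (filled) and with median-ratio scaling (open), with lines for the median of all genes (0.07 dashed, 0.00 dotted); right, number of genes with all 6 siRNA libraries above (red) or below (blue, drawn leftward) the controls, ticks giving the count after scaling. The proteasome has the most genes above (15, or 4 after scaling) and the fast-fibre sarcomere the most below (4).

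Markers of other cell types were measured beside these lists. None of 19 tested macrophage, 26 fibroblast and matrix or 10 tendon and cartilage markers lay on one side of the controls in all 6 libraries. Of all genes 9.49% did. Between the constructs, limma called 3, 10 and 3 of these markers in that order, lower with construct 7. Of all genes it called 1.22%, with 1.07% lower with construct 7. Summed macrophage markers came to 224 to 320.1 FPKM in the controls, 353 to 644 FPKM with construct 5 and 191 to 289.6 FPKM with construct 7. Matrix markers came to 688 to 827 FPKM, 902 to 1290.3 FPKM and 519 to 654 FPKM in the same order, and tendon markers to 59.8 to 83.5 FPKM, 132 to 201 FPKM and 43.0 to 119 FPKM. Construct 5 was thus above every control in all 3 sums, whereas construct 7 overlapped the controls for macrophages and tendon and lay below them for matrix. Their part in the members' values was not tested. The macrophage markers Lyz2 and Cd74 lay at 61.5 to 228 FPKM and 55.1 to 154 FPKM over all libraries. The matrix markers Sparc and Dcn lay at 121 to 266 FPKM and 98.5 to 193 FPKM.

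Skeletal muscle fibre markers fitted the labelled tissue, with all 12 tested and summed levels of 63405 to 76311 FPKM in the 9 libraries, led by Acta1 and Ckm. Of these markers 3 were lower in all 6 libraries (1.45% of all genes) and 0 higher. Endothelial markers (16 tested) had a median of -0.04 and pericyte markers (10) of -0.06, and none was on one side (9.49% of all genes). Of 7 adipocyte markers 1 was higher (8.04% of all genes). It was Pparg (0.842 to 1.03 FPKM in the controls and 1.08 to 1.47 FPKM in the 6 siRNA libraries, 0.22), whose control mean was under 1 FPKM. No T or natural killer cell marker of 12, 2 of 8 neutrophil markers and 2 of 9 B cell markers reached the minimum mean of 1 FPKM. S100a8 and S100a9, neutrophil genes, stood at 14.5 and 17.9 FPKM in construct 5 replicate 2 and at no more than 1.58 FPKM in any other library. No marker in any of the 12 cell type lists was at 0 in every library.

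In the contrast of construct 7 with construct 5, the difference uses no control library and was not part of the rule. Its p-values rest on the spread within all 3 groups, controls included. The rule favours genes with close controls, so among members these p-values are not free of it. limma called 132 genes in this contrast (1.22% of those tested), 16 higher (0.148%) and 116 lower (1.07%) with construct 7. Among the members, 3 of 868 higher (0.346%) and 3 of 156 lower (1.92%) were called. With median-ratio scaling 79 genes were called (0.732%), 2 of them among the higher and 2 among the lower members. A member has to clear the controls with both constructs, which in itself keeps strongly divergent genes out. Construct 5 was further from the controls than construct 7 in 81.9% of the higher members, where it was further in 71.7% of all genes, and in 50% of the lower ones. After scaling these shares were 43.1%, 62.9% and 81.4%, so which construct lay further out in the higher members turned with the scaling.

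The higher members that differed between the constructs were Spon2, Spcs3 and Cd55. Spon2, a secreted matrix protein, stood at 1.34, 1.09 and 1.29 FPKM in the controls, 2.88, 2.72 and 3.09 FPKM with construct 5 and 1.35, 1.47 and 1.37 FPKM with construct 7. Its construct 7 libraries barely cleared the controls, the groups overlapped after scaling, and limma gave a difference of -0.701 (SE 0.0728, adjusted p = 0.00965) between construct 7 and construct 5. Spcs3, a subunit of the signal peptidase of the endoplasmic reticulum, stood at 8.86, 8.60 and 8.59 FPKM in the controls, 15.2, 13.8 and 12.4 FPKM with construct 5 and 9.85, 10.02 and 9.19 FPKM with construct 7, with a limma difference of -0.466 (SE 0.0786, adjusted p = 0.0345). Cd55, which protects cells from complement, stood at 13.2, 14.5 and 14.9 FPKM in the controls, 27.7, 22.0 and 22.4 FPKM with construct 5 and 15.2, 17.6 and 15.3 FPKM with construct 7, with a limma difference of -0.549 (SE 0.101, adjusted p = 0.0443). In all 3 the construct 5 libraries lay above every construct 7 library. The lower members that differed were Arhgap10, Stt3b and Ptpn11. In Arhgap10 construct 7 was the lower, with a limma difference of -0.747 (SE 0.114, adjusted p = 0.0256). In Stt3b construct 5 was the lower, by 0.337 (SE 0.0633, adjusted p = 0.0463) in limma. Ptpn11, the phosphatase Shp2 of growth factor signalling, stood at 19.6, 18.6 and 19.2 FPKM in the controls, 12.1, 14.5 and 13.98 FPKM with construct 5 and 18.4, 17.4 and 17.8 FPKM with construct 7, and construct 5 was again the lower, by 0.378 (SE 0.0748, adjusted p = 0.0493) in limma. After scaling the calls of Arhgap10 (adjusted p = 0.0605) and Cd55 (0.0665) were lost in limma.

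Other members had almost the same mean with both constructs. Rab1, a GTPase of transport from the endoplasmic reticulum to the Golgi, stood at 25.9, 25.6 and 25.2 FPKM in the controls, 30.4, 30.9 and 30.5 FPKM with construct 5 and 30.5, 29.6 and 31.8 FPKM with construct 7, and construct 7 differed from construct 5 by 0.00 (SE 0.0577, adjusted p = 0.995) in limma. The siRNA libraries formed a single group of 29.6 to 31.8 FPKM above controls of 25.2 to 25.9 FPKM. Rp9, Polr2g, Fbxo22, Cfdp1 and Ndufa7 differed between the constructs by 0.00 on the log2 scale as well. For the largest members the error of that difference was wider: the constructs differed by -0.274 (SE 0.589, adjusted p = 0.797) in Sln, 0.239 (SE 0.410, adjusted p = 0.742) in Aldh3a1 and -0.370 (SE 0.166, adjusted p = 0.221) in Smox by limma.

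**Figure D5:**
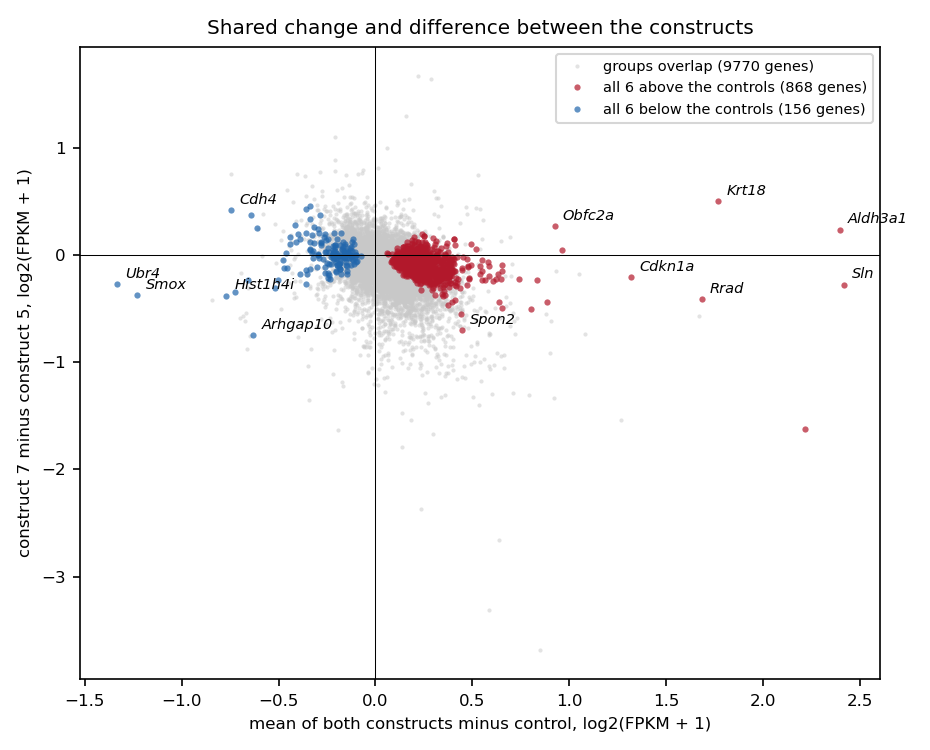
Each point is a gene: mean of both constructs minus control (horizontal axis) against construct 7 minus construct 5 (vertical axis), both as differences in log2(FPKM + 1); red and blue mark the 868 and 156 genes with all 6 siRNA libraries above or below the controls, and grey the genes whose groups overlap. Ubr4 (-1.33, -0.27) and Smox (-1.23, -0.37) lie far left near the horizontal line, and Spon2 (0.45, -0.70) and Arhgap10 (-0.63, -0.75) lie below it.

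At the edge of the rule the groups nearly touched. Just inside it, Nploc4 had a highest control of 19.24 FPKM and a lowest siRNA library of the same value at that rounding. Just outside it, Prkar2a had 1 control at 37.4 FPKM under 1 siRNA library at 37.5 FPKM, and Rbm24 had 1 pair of libraries that overlapped at 39.4 FPKM. These genes on either side of the rule differ by less than the spread between replicates.

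The members were also set beside all genes tested for length and level, as a description without a test. Median exon length, known for 96.9% of genes tested, was 5084 bases in the higher members and 3280 bases in the lower ones, with 4108 bases over all genes tested. The span of the gene on the genome followed the same order, at 29.8, 16.0 and 20.5 kilobases. Among genes of both scalings the higher members had a median exon length of 5202 bases. The median level over all libraries was 4.92 FPKM in the higher and 13.0 FPKM in the lower members, beside 5.17 FPKM over all genes tested. Protein-coding genes made up 96.8%, 91.5% and 92.1% of the higher members, the lower members and all genes tested. None of 24 tested genes of the mitochondrial genome was higher and 1 was lower, beside 8.04% and 1.45% of all genes. Nothing is read from counts this small.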

How the data were processed

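Total RNA of 9 tibialis anterior libraries had been sequenced by the authors. Per the submitters' processing notes, BWA, STAR, HTSeq and the mouse build mm9 were used, with no versions or roles given. The deposited table holds the authors' FPKM values for 23231 genes. Strand is not given in the sources used here, so overlapping genes and gene families are uncertain. Apart from the upstream windows shown, gene positions are left out, since the annotation used is not on mm9. Depth was estimated from the steps between low FPKM values with GENCODE M21 exon lengths of 21323 genes: 29312120 to 45563540 reads, median 32317621. Between 71.9% and 74.1% of values under 50 reads were whole within 0.1 reads, so no count test was used.

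From these values log2(FPKM + 1) was computed for genes with a mean of at least 1 FPKM and fitted over 3 groups with limma 3.58.1 in R 4.3.3 (eBayes with trend). The contrasts were both constructs together against the controls, each construct against the controls, and construct 7 against construct 5, with Benjamini-Hochberg adjustment over 10794 genes and a threshold of 0.05. This scale understates the log2 changes of low genes. The fit was tested on simulated data with known changes. A permutation test of Ubr4 is not reported, since lying on one side of the controls fixes its p.

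The members and the 45 gene lists were chosen with earlier results of these data known. The rule for naming genes took Ubr4, Smox, Hat1, Rbbp4 and Rbbp7 always, the largest and most certain of the called genes, up to 4 genes a list, the 2 most abundant markers of each cell type, 6 genes differing and 6 agreeing most between constructs, and 2 on each side of the edge (1 of which is not reported here), skipping gene models without a name. Since 1 gene was called, the 12 largest and the 8 with the smallest p each way under both scalings were added after the values were seen. Alternatives were pseudocounts of 0.1 and 0.5, no minimum or one of 5 FPKM, median-ratio scaling, quantile normalization, robust eBayes, a replicate block, the 6 siRNA libraries as 1 group, array weights, each library left out, and, chosen after seeing the data, median-ratio scaling without construct 5 replicate 1 or construct 7 replicate 1. Promoter sequences are from RefSeq on GRCm38.p6. Tables were made with pandas 2.3.3 and numpy 2.4.6 in Python 3.11.15, and figures with matplotlib 3.10.9.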

Additional observations from a re-analysis of the deposited data

Results flagged for a closer look

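Among genes with all 6 siRNA libraries on one side of the controls, 6 differed between the constructs by limma's test of construct 7 against construct 5. The difference in log2(FPKM + 1) was -0.701 in Spon2 (adjusted p = 0.00965, and 0.0161 after median-ratio scaling), whose construct 7 libraries lay just above the controls. After that scaling the siRNA libraries and controls overlapped in Spon2. The difference was -0.747 in Arhgap10 (0.0256, scaled 0.0605), which was lower in both constructs and lowest with construct 7. In Spcs3 it was -0.466 (0.0345, scaled 0.0462) and in Cd55 -0.549 (0.0443, scaled 0.0665), both higher with construct 5. Stt3b differed by 0.337 (0.0463, scaled 0.0211) and Ptpn11 by 0.378 (0.0493, scaled 0.0444), both lower with construct 5. Each of these differences held for all 3 libraries of one construct against all 3 of the other. The call chose these genes, so that separation largely follows from it and adds no support. The rule favours genes with close controls, so among members the p-values are not free of it.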

How the results depend on the processing

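The log2 change of Ubr4 ranged from -1.57 to -1.25 over 21 alternatives, with limma adjusted p-values of 0.00191 to 0.0677. The call was lost with no minimum level (-1.33, 0.0677) and when control replicate 3 was left out (-1.33, 0.0544); leaving out 1 library gave -1.43 to -1.25. Called genes numbered 0 (0 higher, 0 lower) with no minimum, 2 (2 lower) at 5 FPKM, 103 (84 higher, 19 lower) with array weights and 12 (6 higher, 6 lower) with median-ratio scaling without construct 7 replicate 1. With 1 library left out they ranged from 0 to 7 (0 to 5 higher, 0 to 3 lower). Counts of genes on one side were 548 (428 higher) at 5 FPKM, 437 higher and 429 lower with median-ratio scaling, 363 higher and 375 lower with quantile normalization, 491 higher and 485 lower with median-ratio scaling without construct 5 replicate 1, and 673 lower with that scaling without construct 7 replicate 1. With 1 library left out they ranged from 1096 to 1869 (892 to 1643 higher, 175 to 355 lower). The cause of these shifts was not tested, except that fewer libraries or genes lower the bar or the number tested by construction. Ubr4 kept its direction in all 21 alternatives. Depth of 29312120 to 45563540 reads limits genes near 3 reads, such as Aldh3a1 in control replicate 1.

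Whether the replicate numbers pair the samples is not known. Correlations of deviations from the group means ran from -0.364 to 0.313 between same-numbered libraries. They ran from -0.566 to 0.518 between differently numbered libraries of different groups. With 3 libraries a group these values cannot decide it. A fit with the replicate block called 4 genes (1 higher, 3 lower), the lower ones being Hist1h4i, Smox and Ubr4. The higher one, Aldh3a1, reached the minimum only through the siRNA libraries, so its call is not read as a result.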
